A study of Rattus norvegicus with 9 samples.

Results

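The genes described here were 10 genes of the YAP and TAZ pathway, taken by symbol from a list of known pathway genes: the coactivators Yap1 and Wwtr1 (the gene of TAZ), the DNA-binding partner Tead1, the inhibitors Amotl2 and Lats2, the secreted targets Ctgf, Cyr61, and Thbs1, and the targets Ankrd1 and Axl. All 10 were found by symbol among the 35362 genes of the count table, and all 10 were among the 14770 genes that passed the filter on low counts. RNA was sequenced from mesenchymal stem cells grown out of the subcutaneous fat of the groin (SASCs), the perirenal fat (PASCs), and the epididymal fat (EASCs) of Sprague Dawley rats, which were males aged 6 weeks per the study's methods. Every group held 3 samples of passage 3 cells, all grown in high-glucose medium with 10% fetal bovine serum, and no treatment separated the groups. The methods describe 6 replicates per group in culture wells, against the 3 samples per group here. They do not say which rat each sample came from, so the p-values measure the spread between these samples, which may be technical.

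YAP and TAZ are transcriptional coactivators without a DNA-binding domain of their own, and they act mainly through the TEAD factors. The Hippo kinases, ending in LATS1 and LATS2, phosphorylate YAP and TAZ and hold them in the cytoplasm, whereas a stiff substrate, spreading, and actin tension favor the nucleus, where genes such as Ctgf, Cyr61, and Ankrd1 are induced. In mesenchymal stem cells, YAP and TAZ are known for relaying the stiffness of the matrix to the choice between fat and bone lineages. The amount of Yap1 or Wwtr1 mRNA does not report where the proteins were, and no protein was measured.

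Promoter sequences are shown for 4 targets that the comparisons turn on. Only the bases just before the start site were searched for TEAD motifs, and sites farther away were not. Of the 10 genes, 7 had an entry in the RefSeq promoter table (build GRCr8), where Ctgf is listed as Ccn2 and Cyr61 as Ccn1, and Tead1, Lats2, and Ankrd1 had none. The letters GGAATG, the core of the TEAD motif, were searched on both strands (CATTCC is the same motif on the other strand) in the 250 bases before each start site, and matches are in capitals. The Ctgf promoter lies at chr1:22624615-22624864 on the minus strand, the Cyr61 promoter at chr2:237225690-237225939 on the minus strand, the Amotl2 promoter at chr8:112182376-112182625 on the plus strand, and the Thbs1 promoter at chr3:125510000-125510249 on the plus strand, all read 5′ to 3′ in the direction of the gene.
Ctgf: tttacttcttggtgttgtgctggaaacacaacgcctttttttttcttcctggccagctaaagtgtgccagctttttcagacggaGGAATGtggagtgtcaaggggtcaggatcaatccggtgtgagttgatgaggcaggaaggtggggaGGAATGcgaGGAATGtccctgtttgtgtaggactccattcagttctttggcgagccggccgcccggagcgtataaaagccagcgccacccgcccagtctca
Cyr61: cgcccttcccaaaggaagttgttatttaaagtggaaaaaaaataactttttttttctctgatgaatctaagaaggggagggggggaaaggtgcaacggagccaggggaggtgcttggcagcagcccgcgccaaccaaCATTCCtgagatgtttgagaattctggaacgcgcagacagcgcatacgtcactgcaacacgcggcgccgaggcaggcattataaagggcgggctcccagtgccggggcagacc
Amotl2: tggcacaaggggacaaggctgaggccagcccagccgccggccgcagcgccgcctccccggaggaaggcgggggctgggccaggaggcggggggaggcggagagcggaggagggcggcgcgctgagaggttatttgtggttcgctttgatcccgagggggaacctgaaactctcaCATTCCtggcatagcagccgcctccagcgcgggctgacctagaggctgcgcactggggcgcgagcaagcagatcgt
Thbs1: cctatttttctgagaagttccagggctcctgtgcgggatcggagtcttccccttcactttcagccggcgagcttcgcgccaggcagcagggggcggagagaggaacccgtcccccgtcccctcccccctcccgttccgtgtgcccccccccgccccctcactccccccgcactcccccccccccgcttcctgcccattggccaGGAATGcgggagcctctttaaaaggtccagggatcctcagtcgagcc
The Ctgf promoter held 3 matches, starting 166, 101, and 92 bases before the start site. Cyr61 held 1 match starting 113 bases before it, Amotl2 1 at 76 bases, Thbs1 1 at 47 bases, and Yap1 1 at 116 bases, and the windows of Wwtr1 and Axl held none. Among all 33469 promoters of the table, 12.1% held at least 1 match and 0.0807% held 3 or more. The AP-1 motif TGANTCA was in none of the 7 windows and in 6.34% of all promoters. The CArG box, the element bound by SRF, was also in none of the 7, against 1.5% of all. A match in these letters is a description of the sequence and not evidence of binding.

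The libraries held 17591916 to 30299032 counts, and 3 counts in a sample corresponded to between 0.104 and 0.159 CPM (the counts of a gene relative to the TMM-scaled size of its library), a limit of counting error only. SASCs had the smallest share of ribosomal RNA counts, 10.4% to 15.5%, against 22.4% to 32.9% for PASCs and 15.9% to 40.3% for EASCs. Scaling by total counts without TMM moved the median log2 fold change of all genes to -0.39 between EASCs and SASCs, -0.33 between PASCs and SASCs, and -0.08 between EASCs and PASCs, so small differences between depots depend on the scaling, and the total-count value is given where it changes the direction or the call of one of the 10 genes. The mesenchymal markers Thy1, Nt5e, Eng, Itgb1, Cd44, Pdgfra, and Pdgfrb summed to between 3784 and 5027 CPM in every sample, but they did not move as one. Pdgfra was a downregulated DEG in EASCs (log2 -2.72, edgeR adjusted p = 4.19e-24) and in PASCs (-2.47, adjusted p = 3.50e-23) against SASCs, whereas Eng (3.41-fold) and Itgb1 (2.82-fold) were upregulated DEGs in EASCs.

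The coactivators Yap1 and Wwtr1 differed little between depots with TMM, at most 1.32-fold (Wwtr1 in EASCs against SASCs). The targets did not move as one. Ctgf, Thbs1, and the scarce Ankrd1 were several-fold higher in EASCs and PASCs than in SASCs. Axl (at most 1.38-fold), Lats2 (at most 1.29-fold), and Cyr61 (at most 1.55-fold, lowest in PASCs) differed by less than 2-fold. Tead1 (at most 1.63-fold) and Amotl2 (at most 2.32-fold) lay between. Upregulated DEGs were genes more than 2-fold higher at an adjusted p under 0.05 in edgeR's quasi-likelihood test. Ankrd1 passed the filter on low counts only through PASCs and EASCs, since its counts in SASCs were close to 0. It is therefore left out of the counts against SASCs. Between EASCs and SASCs, 3 of the other 9 genes were upregulated DEGs (Amotl2, Ctgf, and Thbs1), against 13.6% of all genes tested. Between PASCs and SASCs, 2 of the 9 were (Ctgf and Thbs1), against 12% of all genes. Between EASCs and PASCs Ankrd1 alone was an upregulated DEG, against 5.19%. None of the 10 was a downregulated DEG in any of the 3 comparisons, by edgeR or by DESeq2, where 14.2%, 14.9%, and 2.2% of all genes were. EASCs and PASCs were compared with the same SASCs samples, so these comparisons are not independent of each other. In cultures sequenced in bulk, fewer cells of a type and less RNA per cell cannot be told apart.

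**Figure D1:**
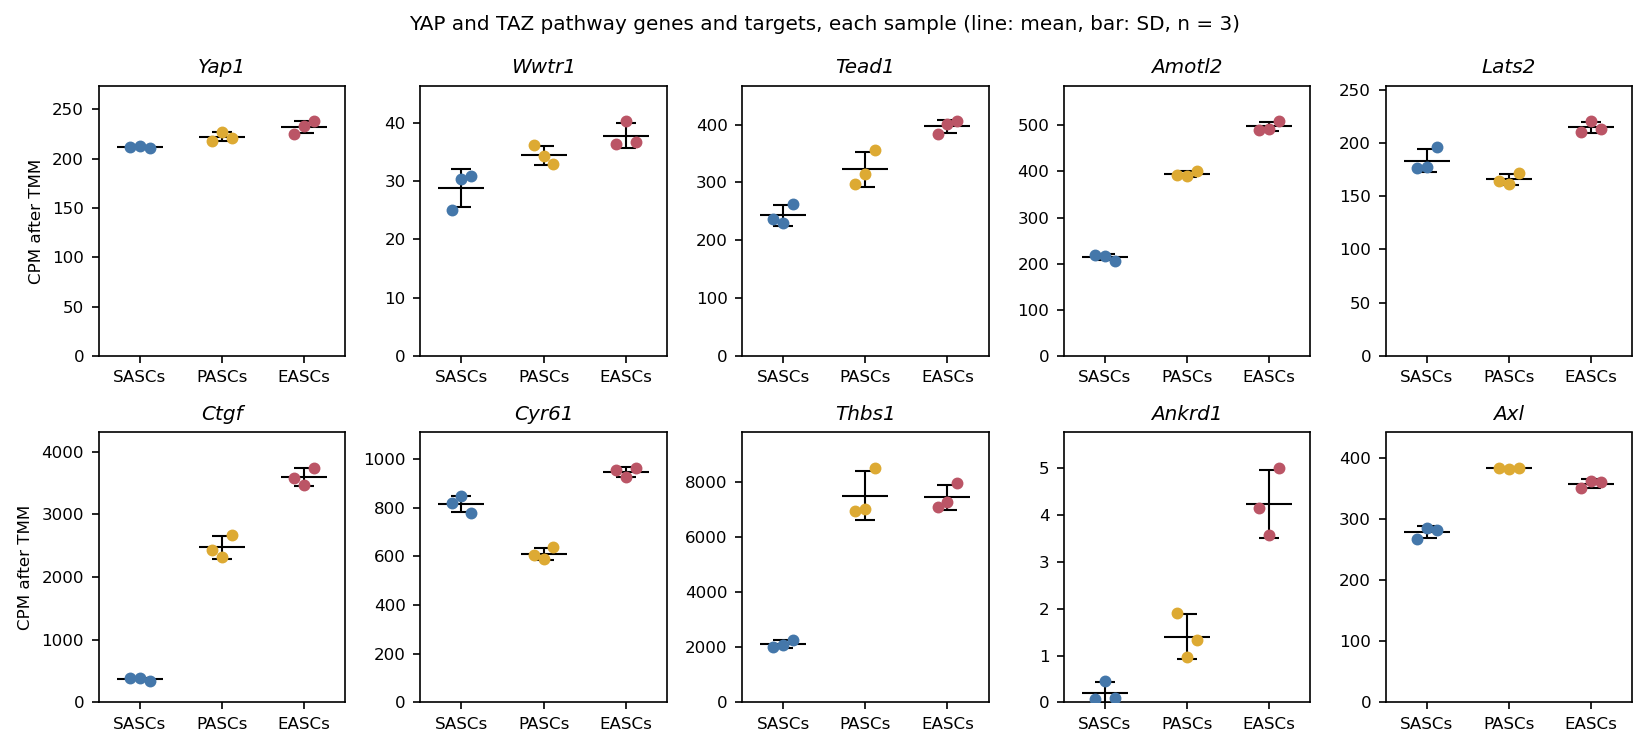
CPM after TMM (vertical axes, each from 0) of the 10 YAP and TAZ genes in SASCs, PASCs, and EASCs. Points are the 3 samples of a group, lines their means, and bars their SD, and the Ankrd1 bar in SASCs is clipped at 0. Ctgf in EASCs lay between 3467 and 3745 CPM, above 347 to 387 CPM in SASCs, whereas the axis of Yap1 shows all 9 samples between 211 and 238 CPM, an order that turned under scaling by total counts.

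Since Ankrd1 passed the filter only through PASCs and EASCs, it is left out of the following counts and medians against SASCs. By the less strict criterion of an adjusted p under 0.05 alone, 9 of the other 9 genes were higher in EASCs than in SASCs, where 35.5% of all genes were higher and 34.3% lower. In PASCs against SASCs 6 of the 9 were higher and 2 lower (Cyr61 and Lats2), where 34.6% of all genes were higher and 34.6% lower. In EASCs against PASCs 6 of the 10 were higher (Tead1, Amotl2, Lats2, Ctgf, Cyr61, and Ankrd1) and 0 lower, also at an unadjusted p under 0.05, where 16.1% and 14.5% of all genes were. The median log2 fold change over the 9 genes was 0.40 in EASCs against SASCs and 0.41 in PASCs against SASCs, that over the 10 genes was 0.32 in EASCs against PASCs, and over all genes tested it was 0.01, -0.01, and -0.01. The samples of all 9 genes were higher in EASCs than in SASCs, without overlap, where 36.3% of all genes had such higher and 35.8% such lower values. For PASCs and SASCs 7 genes were higher and 2 lower without overlap (all genes, 35.7% and 36%), and for EASCs and PASCs 7 of the 10 were higher and 1 lower (all genes, 21.1% and 20.1%). Scaled by total counts, the medians over the same genes were 0.0063, 0.092, and 0.24, with 3, 3, and 3 genes higher and 0, 2, and 0 lower at an adjusted p under 0.05. Of all genes, 15.3%, 16%, and 7.64% were then higher and 46.7%, 42.9%, and 7.14% lower.

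Yap1, the gene of the coactivator YAP (chr8:6133014-6204226, minus strand, on rn6 like every gene position given here), was measured at 212, 213, and 211 CPM in the 3 SASCs samples, 218, 227, and 222 CPM in PASCs, and 225, 233, and 238 CPM in EASCs. SASCs were lowest and did not overlap either other group, but PASCs and EASCs overlapped, and the means lay within 10% of each other (1.10-fold between EASCs and SASCs). The log2 fold change was 0.13 (SE 0.0509, edgeR adjusted p = 0.0226) in EASCs against SASCs, and under total counts it was -0.26 (adjusted p = 0.149). That call was lost without SASCs replicate 1, SASCs replicate 2, EASCs replicate 2, or EASCs replicate 3 (edgeR adjusted p between 0.0511 and 0.0665). Between PASCs and SASCs the difference was 0.07, with a 95% interval from -0.04 to 0.17 (edgeR adjusted p = 0.233).

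Wwtr1, the gene of TAZ (chr2:147577149-147693033, minus strand), had 25.1, 30.4, and 30.9 CPM in SASCs, 36.2, 34.3, and 32.9 CPM in PASCs, and 36.4, 40.3, and 36.7 CPM in EASCs. The 3 groups did not overlap, with SASCs lowest and EASCs highest. The log2 fold change was 0.40 (SE 0.0806, edgeR adjusted p = 9.22e-05) in EASCs and 0.26 (SE 0.0810, adjusted p = 0.00528) in PASCs, each against SASCs, and with total counts these became 0.01 and -0.07. Without SASCs replicate 1, the lowest sample, the difference of PASCs from SASCs was 0.17 (edgeR adjusted p = 0.0733). EASCs and PASCs differed by 0.13, with a 95% interval from -0.03 to 0.30 (adjusted p = 0.225). Per kilobase of the gene's deposited length, Wwtr1 stood at 0.412 ± 0.0465 (SD, n = 3) of Yap1 in SASCs, 0.471 ± 0.0287 in PASCs, and 0.494 ± 0.0279 in EASCs, a ratio within each library that no scaling changes. The Wwtr1 to Yap1 ratio was lower in each SASCs sample than in any other sample, with 0.444 the highest in SASCs and 0.450 the lowest in PASCs, and the ranges of PASCs and EASCs overlapped.

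Tead1, a TEAD factor through which YAP and TAZ reach DNA (chr1:177495500-177714795, plus strand), was measured at 237, 229, and 263 CPM in SASCs, 298, 314, and 356 CPM in PASCs, and 384, 401, and 406 CPM in EASCs. The groups were ordered SASCs, PASCs, EASCs without overlap. Tead1 was 0.71 higher on the log2 scale in EASCs than in SASCs (SE 0.0639, edgeR adjusted p = 1.45e-10), 0.41 higher in PASCs than in SASCs (SE 0.0638, adjusted p = 2.56e-06), and 0.30 higher in EASCs than in PASCs (adjusted p = 5.39e-04). With total counts the 3 differences were 0.32, 0.09, and 0.22, the same directions with adjusted p of 0.0797, 0.644, and 0.446. The annotated Tead1 locus overlaps 3 uncharacterized loci, whose counts came to at most 1.78% of those of Tead1.

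The other TEAD genes differed more than Tead1. Tead3 rose 3.01-fold in EASCs (log2 1.59, edgeR adjusted p = 2.98e-17) and 2.11-fold in PASCs (log2 1.08, adjusted p = 2.12e-13), each against SASCs. Tead4 rose from 5.41 ± 0.303 CPM (SD, n = 3) in SASCs to 17.3 ± 1.44 in PASCs and 27.2 ± 3.06 in EASCs. Tead2 went both ways, at 0.88 on the log2 scale for EASCs against SASCs (edgeR adjusted p = 1.44e-06) and -0.74 for PASCs against SASCs (adjusted p = 7.43e-05), and was a DEG between EASCs and PASCs (log2 1.62, adjusted p = 3.78e-10). Those directions were the same with total counts, although Tead3 in PASCs was then below 2-fold (log2 0.76).

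Per kilobase, Tead1 to Tead4 summed to 34.7 ± 2.15 CPM per kb (SD, n = 3) in SASCs, 53.8 ± 4.43 in PASCs, and 74.3 ± 1.67 in EASCs, while Yap1 and Wwtr1 together had 64.1 ± 2.04, 70.0 ± 1.05, and 74.4 ± 2.20 CPM per kb. The make-up of the TEAD sum, a share within each library, differed as well. Tead1 held 59.2% ± 0.966 (SD, n = 3) of it in SASCs, 50.8% ± 1.57 in PASCs, and 45.2% ± 0.652 in EASCs, and Tead3 held 30.6% ± 0.448, 41.8% ± 1.05, and 43.0% ± 0.579. The ranges of the Tead1 share did not overlap between any 2 groups. With 3 samples against 3, a two-sided exact permutation test of such a share cannot give a p below 0.1, so no test of the shares is given.

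Among the other partners of TEAD, which compete with or modify YAP and TAZ binding, Vgll3 was 0.73 higher on the log2 scale in EASCs and 0.36 higher in PASCs than in SASCs (edgeR adjusted p = 6.65e-12 and 2.58e-06), and Vgll4, a repressor of YAP-driven transcription, fell by 0.46 and by 0.68 on the log2 scale (edgeR adjusted p = 5.23e-06 and 8.43e-09). Vgll3 no longer passed under total counts (0.34 and 0.04), and Vgll4 did (-0.86 and -1.01). Of the 7 listed TEAD and VGLL genes 5 were tested, and 2 were upregulated DEGs in EASCs and 2 in PASCs against SASCs (Tead3 and Tead4 in both) and none was a downregulated DEG, where 13.6% and 12% of all genes were upregulated and 14.2% and 14.9% downregulated. With total counts the 2 remained in EASCs, but PASCs had 1 upregulated (Tead4) and 2 downregulated DEGs (Tead2, -1.06, and Vgll4, -1.01), where 8.54% of all genes were upregulated and 21.5% downregulated. Vgll1 and Vgll2 did not pass the filter on low counts.

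Amotl2, a target of YAP that retains YAP at cell junctions and so acts against it (chr8:111210252-111226217, plus strand), had 220, 217, and 207 CPM in SASCs, 392, 389, and 401 CPM in PASCs, and 491, 493, and 509 CPM in EASCs. The samples of a group lay close together and the groups did not overlap. Amotl2 was 2.32-fold higher in EASCs than in SASCs (log2 1.21, SE 0.0527, edgeR adjusted p = 1.85e-17), 1.84-fold higher in PASCs than in SASCs (log2 0.88, SE 0.0525, adjusted p = 2.53e-14), and 1.26-fold higher in EASCs than in PASCs (log2 0.34, adjusted p = 8.89e-06). With total counts the difference between EASCs and SASCs was 0.82 on the log2 scale, below 2-fold, and Amotl2 was then not a DEG. The difference between EASCs and PASCs was then 0.26 and did not pass (edgeR adjusted p = 0.339).

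Lats2, one of the kinases that phosphorylate YAP and TAZ and itself a target of theirs (chr15:37943609-37995169, minus strand), was measured at 177, 178, and 196 CPM in SASCs, 164, 162, and 172 CPM in PASCs, and 210, 221, and 213 CPM in EASCs. PASCs were lowest and EASCs highest, and no 2 groups overlapped. Lats2 was 0.37 higher on the log2 scale in EASCs than in PASCs (SE 0.0545, edgeR adjusted p = 4.35e-06), or 0.30 with total counts, where the call was lost (adjusted p = 0.238). For EASCs against SASCs the value was 0.23 (adjusted p = 5.80e-04), which turned to -0.16 with total counts. For PASCs against SASCs it was -0.14 (adjusted p = 0.0217), or -0.47 with total counts. The call in PASCs was lost without SASCs replicate 3, PASCs replicate 1, or PASCs replicate 2 (edgeR adjusted p = 0.145, 0.0594, and 0.0947). Its paralog Lats1 had 77.4 ± 6.55 CPM (SD, n = 3) in SASCs, 70.5 ± 10.1 in PASCs, and 71.3 ± 2.34 in EASCs, and did not pass the test in any comparison with TMM. With total counts it passed as lower than in SASCs in EASCs (log2 -0.51, edgeR adjusted p = 0.00315) and in PASCs (-0.45, adjusted p = 0.0101).

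Amotl2 and Lats2 thus moved apart between SASCs and the other depots. The ratio of Amotl2 to Lats2 counts per length was 1.35 ± 0.119 (SD, n = 3) in SASCs, with samples at 1.43, 1.41, and 1.22, and 2.74 ± 0.0410 in PASCs and 2.67 ± 0.0874 in EASCs. The highest SASCs sample was far below the lowest sample of the others, 2.58, while PASCs and EASCs overlapped.

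**Figure D2:**
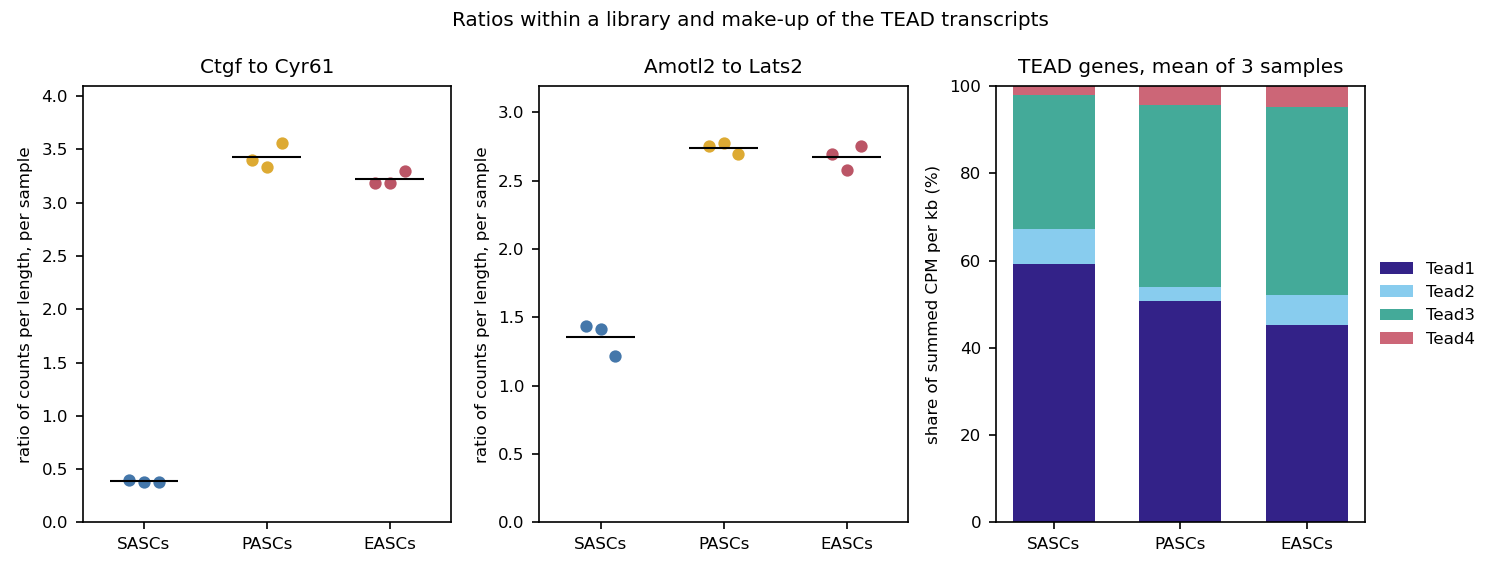
Ratios of counts per length in each library for Ctgf to Cyr61 and Amotl2 to Lats2 (points, samples; lines, means of 3), and the mean share of each TEAD gene in the summed TEAD level (CPM per kb, in percent). The ratios and shares are unaffected by scaling between libraries. SASCs lay at 0.377 to 0.400 for Ctgf to Cyr61 and the other 6 samples at 3.18 to 3.56, and the mean share of Tead1 was 59.2% in SASCs and 45.2% in EASCs.

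Ctgf, which encodes the matricellular protein CCN2 and is a widely used readout of YAP and TAZ (chr1:21851657-21854773, minus strand), was measured at 387, 382, and 347 CPM in SASCs, 2428, 2320, and 2679 CPM in PASCs, and 3580, 3467, and 3745 CPM in EASCs. SASCs were lowest and EASCs highest, without overlap between any 2 groups. Ctgf was 9.67-fold higher in EASCs than in SASCs (log2 3.27, SE 0.0692, edgeR adjusted p = 1.68e-24), 6.66-fold higher in PASCs than in SASCs (log2 2.73, SE 0.0677, adjusted p = 6.40e-23), and 1.45-fold higher in EASCs than in PASCs (log2 0.54, adjusted p = 1.14e-07). With total counts the log2 differences were 2.87, 2.42, and 0.46. By CPM per kb Ctgf ranked 290th of the genes tested in SASCs, 35th in PASCs, and 24th in EASCs. The annotated gene overlaps Vom2r6, which had 0 counts in every sample.

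Cyr61, which encodes CCN1, the closest relative of CCN2 among these genes, and which is also a direct target of YAP (chr2:251529354-251532312, minus strand), did not follow Ctgf. It had 820, 847, and 781 CPM in SASCs, 606, 590, and 639 CPM in PASCs, and 954, 926, and 965 CPM in EASCs. PASCs were lowest, SASCs intermediate, and EASCs highest, without overlap. Cyr61 was 1.33-fold lower in PASCs than in SASCs (log2 -0.42, SE 0.0549, edgeR adjusted p = 1.78e-07) and 1.55-fold higher in EASCs than in PASCs (log2 0.63, adjusted p = 3.93e-10). The difference between EASCs and SASCs was 0.22 on the log2 scale (adjusted p = 0.00102) and turned to -0.18 with total counts (adjusted p = 0.336).

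Within a library, Ctgf per length was 0.400, 0.383, and 0.377 of Cyr61 in the SASCs samples, 3.40, 3.34, and 3.56 times Cyr61 in PASCs, and 3.19, 3.18, and 3.30 times in EASCs. Cyr61 was therefore the more abundant of the pair in every SASCs sample and Ctgf in each of the other 6, whichever scaling was used. PASCs lay slightly above EASCs in this ratio without overlap (3.43 ± 0.115 against 3.22 ± 0.0641, SD, n = 3).

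Thbs1, the gene of thrombospondin 1, a matricellular protein that binds CD47 and activates latent TGF-beta (chr3:109862120-109873466, plus strand), was the most abundant of the 10 genes per length. It had 2009, 2082, and 2267 CPM in SASCs, 6944, 7040, and 8523 CPM in PASCs, and 7101, 7277, and 7968 CPM in EASCs. SASCs lay below the other 6 samples, and PASCs and EASCs overlapped. Thbs1 was 3.52-fold higher in EASCs (log2 1.81, SE 0.0762, edgeR adjusted p = 8.53e-18) and 3.54-fold higher in PASCs (log2 1.82, SE 0.0762, adjusted p = 7.78e-18) than in SASCs, and with total counts 1.41 and 1.51 higher on the log2 scale. EASCs and PASCs differed by -0.01, with a 95% interval from -0.16 to 0.14 (edgeR adjusted p = 0.936), and the sign of this difference turned under upper quartile scaling (0.02) and without PASCs replicate 3 (0.09), EASCs replicate 1 (0.02), or EASCs replicate 2 (0.0058). By CPM per kb Thbs1 ranked 82nd in SASCs, 16th in PASCs, and 15th in EASCs. The Thbs1 to Ctgf ratio per length was 3.66 ± 0.454 (SD, n = 3) in SASCs, 1.93 ± 0.103 in PASCs, and 1.32 ± 0.0488 in EASCs, without overlap.

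**Figure D3:**
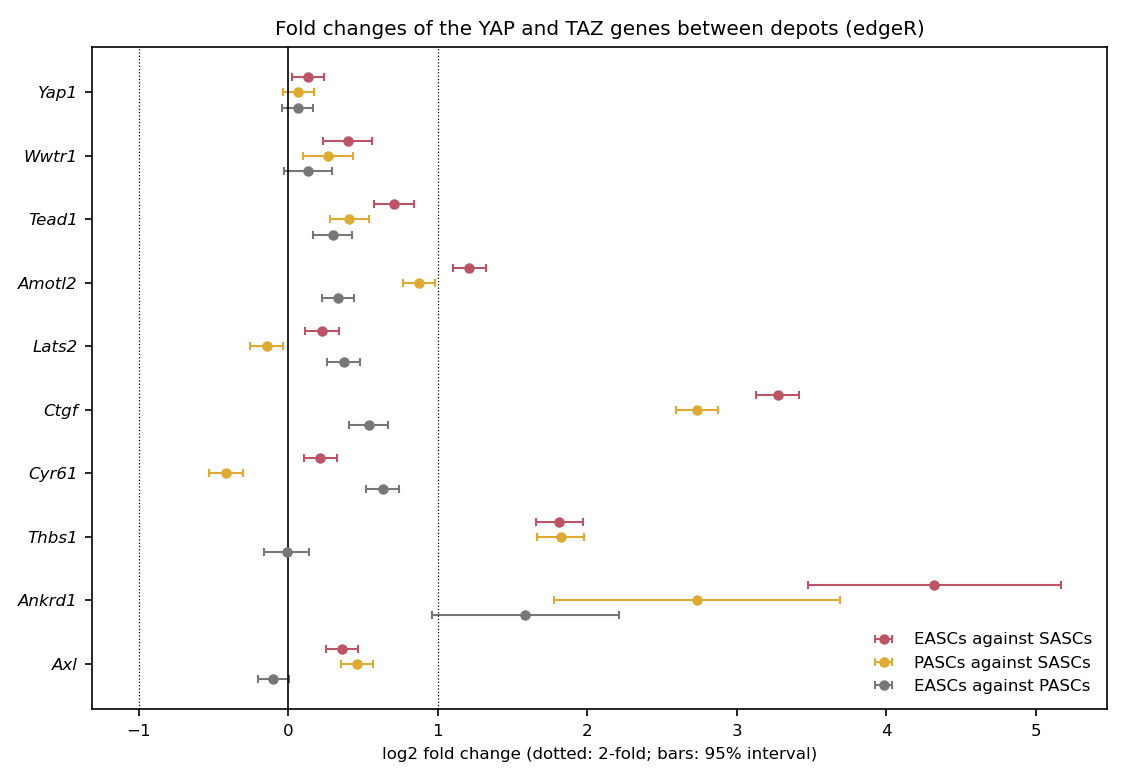
log2 fold changes of the 10 genes (horizontal axis, edgeR, TMM) in EASCs against SASCs, PASCs against SASCs, and EASCs against PASCs, with 95% intervals as bars and dotted lines at 2-fold. Ctgf, Thbs1, and Ankrd1 lay beyond 2-fold in both comparisons with SASCs and Amotl2 in EASCs alone (log2 1.21, or 0.82 with total counts). Ankrd1 is drawn with its intervals but passed the filter on low counts only through PASCs and EASCs. Directions that turned with total counts were those of Yap1 in all 3 comparisons, Lats2, Cyr61, and Axl in EASCs against SASCs, and Wwtr1 in PASCs against SASCs.

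Ankrd1, which encodes an ankyrin repeat protein of muscle and stretched cells and is a sensitive target of YAP (chr1:254726985-254745683, minus strand), was scarce in all 9 samples. The 3 SASCs samples had 2, 11, and 2 counts, whereas PASCs had 50, 26, and 25 and EASCs had 99, 88, and 112, or 0.0695, 0.467, and 0.0976 CPM, 1.91, 0.972, and 1.32 CPM, and 4.14, 3.57, and 5.01 CPM. The groups did not overlap, and 2 of the SASCs samples were under 3 counts. Against SASCs, the fitted log2 fold change was 4.32 for EASCs and 2.73 for PASCs, given without a test because Ankrd1 passed the filter on low counts only through the groups where it was high. SASCs replicate 2 held 11 of the 15 counts of its group, and without it the values were 5.61 and 4.03. Between EASCs and PASCs the log2 fold change was 1.59 (SE 0.304, adjusted p = 1.67e-04). Summed over a group and divided by the library sizes, Ankrd1 counts were 20.5 times as high in EASCs as in SASCs and 6.83 times in PASCs. Both ratios to SASCs are given without an interval because of the same filter. Between EASCs and PASCs the ratio was 3.0 (exact 95% interval 2.38 to 3.79), where the interval covers counting error only.

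Axl, a receptor tyrosine kinase for GAS6 that is induced by YAP (chr1:82550892-82580761, minus strand), was measured at 267, 285, and 282 CPM in SASCs, 384, 382, and 383 CPM in PASCs, and 350, 362, and 361 CPM in EASCs. It was the only one of the 10 genes whose samples were all higher in PASCs than in EASCs. The log2 fold change was 0.46 in PASCs (SE 0.0519, edgeR adjusted p = 1.07e-08) and 0.36 in EASCs (SE 0.0519, adjusted p = 6.63e-07) against SASCs, and with total counts these were 0.14 (adjusted p = 0.480) and -0.030 (adjusted p = 0.883). EASCs and PASCs differed by -0.10, with a 95% interval from -0.20 to 0.01 (adjusted p = 0.166).

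By CPM per kb, the order of the 10 genes in SASCs was Thbs1, Cyr61, Ctgf, Axl, Amotl2, Yap1, Lats2, Tead1, Wwtr1, and Ankrd1, at means of 580, 411, 159, 104, 49.5, 45.4, 36.7, 20.5, 18.7, and 0.111. In EASCs Ctgf (1540 ± 59.9, SD, n = 3) stood second after Thbs1 (2039 ± 125), ahead of Cyr61 (478 ± 10.2), and the order of the others was that of SASCs. PASCs had the order of EASCs, with Ctgf at 1060 ± 78.9 and Cyr61 at 308 ± 12.5 CPM per kb. In SASCs the neighbours Tead1 (20.5 ± 1.51) and Wwtr1 (18.7 ± 2.09) overlapped, and the rest did not. Gene lengths are those of the deposited table, and a gene whose cells use a shorter transcript would be understated.

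The genes whose pattern over the 9 samples was most like that of a YAP and TAZ gene were found, for each of the 10 but Axl, by the smallest root mean square difference of centered log2 CPM, given here in log2 units. For Ctgf they were Col8a2, a collagen chain (0.0923), and Actn1, the actin crosslinker alpha-actinin 1 (0.106). For Thbs1 they were Adamts6, a secreted protease (0.0888), and Cd38, an enzyme that consumes NAD (0.0902), and for Amotl2 they were Gsdmd (0.0516) and Rrp12 (0.0524). For Cyr61 they were L3mbtl3 (0.0402) and Ndrg2 (0.0565). Ankrd1 had no gene as close, with Rap1gap2 at 0.386 and Shroom1 at 0.476. Its SASCs samples held only 2 to 11 counts, so counting error is part of these distances. Tead1 was nearest to Arhgap21 (0.0383) and Elf4 (0.0413), Lats2 to Zfp609 (0.0542) and Eea1 (0.0549), Wwtr1 to Pinx1 (0.0528) and Dab2ip (0.0535), and Yap1 to Eif2b5 (0.0239) and Alg2 (0.0304). Yap1 itself varied little (SD 0.0629 in log2 CPM over 9 samples, against 1.52 for Ctgf).

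Of the Hippo kinases and their upstream regulators, some were higher and some lower outside SASCs. All 22 genes listed were tested, and Wwc1, the gene of KIBRA, is left out of the counts against SASCs, since it had 4 to 6 counts in the SASCs samples and passed the filter only through the other groups. Of the other 21, 2 were upregulated and 2 downregulated DEGs in EASCs against SASCs, and 2 and 1 in PASCs against SASCs, with medians of -0.12 and -0.086. Of all genes tested, 13.6% rose and 14.2% fell as DEGs for EASCs, and 12% and 14.9% for PASCs. With total counts 1 was upregulated and 4 were downregulated DEGs in EASCs (all genes, 9.13% and 23.2%), with Stk3 (-1.10) and Sav1 (-1.29) among the latter, and there was 1 of each in PASCs (all genes, 8.54% and 21.5%). By the adjusted p alone 9 were higher and 9 lower in each of these comparisons, where 35.5% and 34.3% of all genes were in EASCs and 34.6% and 34.6% in PASCs. With total counts 3 were higher and 11 lower in EASCs (all genes, 15.3% and 46.7%) and 2 and 11 in PASCs (all genes, 16% and 42.9%). The upregulated DEGs in both were Ajuba, a LIM protein that inhibits LATS (log2 2.35 in EASCs and 2.16 in PASCs), and Amot, the motin related to Amotl2 (1.16 and 1.30, or 0.75 and 0.98 with total counts). Fat4 and Dchs1, a pair of giant cadherins that bind each other and feed into Hippo signaling, fell by 1.66 and 1.73 on the log2 scale in EASCs (edgeR adjusted p = 1.36e-13 and 2.65e-15) and by 1.19 and 0.31 in PASCs (adjusted p = 8.22e-11 and 0.00202). Dchs1 was the only DEG of the list between EASCs and PASCs (log2 -1.42, adjusted p = 2.05e-12), and without PASCs replicate 1 or EASCs replicate 1 the list had 2. Over all genes 5.19% were upregulated and 2.2% downregulated DEGs in that comparison.

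Further genes known as targets of YAP and TAZ were mixed. Of 15 listed, 14 were in the table and tested, and in EASCs against SASCs 4 were upregulated and 1 was a downregulated DEG (median log2 0.50, or 0.10 with total counts), whereas in PASCs there was 1 of each (median -0.07, or -0.39). With total counts 2 were upregulated and 2 downregulated in EASCs, where Crim1 (0.72) and Foxf2 (0.71) were below 2-fold, and 1 and 2 in PASCs. Over all genes, the upregulated and downregulated shares were 13.6% and 14.2% in EASCs and 12% and 14.9% in PASCs with TMM, and 9.13% and 23.2% in EASCs and 8.54% and 21.5% in PASCs with total counts. Nuak2, a kinase that feeds back on Hippo signaling, rose in EASCs (log2 2.89, edgeR adjusted p = 1.40e-21) and PASCs (2.53, adjusted p = 3.31e-20). Gadd45a, a stress and growth arrest gene, fell from 209 ± 8.17 CPM (SD, n = 3) in SASCs to 38.6 ± 2.78 in PASCs and 23.4 ± 3.46 in EASCs. Tgfb2, the gene of transforming growth factor beta 2, was higher in EASCs (log2 2.14, adjusted p = 4.31e-20) than in PASCs (0.42, adjusted p = 1.64e-05), each against SASCs, and was a DEG between them (1.72, adjusted p = 4.05e-17). With total counts the Tgfb2 difference of PASCs from SASCs was 0.095 and did not pass (edgeR adjusted p = 0.644). Crim1 had 1.11 in EASCs and 0.18 in PASCs, the latter turning to -0.13 with total counts, and Foxf2 had 1.13 and 0.55 on 17 to 66 counts. Between EASCs and PASCs 2 of the list were upregulated DEGs (Nt5e and Tgfb2), against 5.19% of all genes, and 1 was without PASCs replicate 1 or with total counts (all genes, 4.4%).

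**Figure D4:**
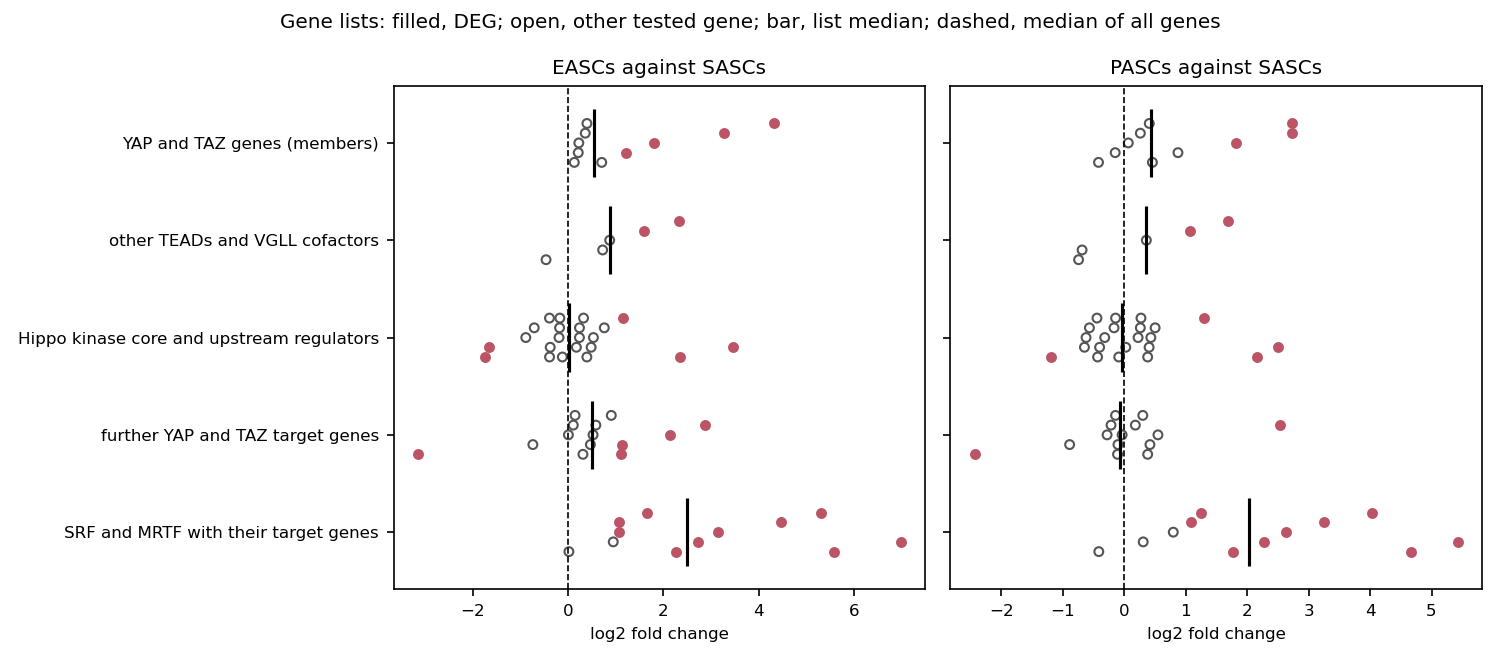
log2 fold changes (horizontal axes, edgeR, TMM) of the 10 YAP and TAZ genes and of 4 gene lists in EASCs and in PASCs, each against SASCs. Filled points are DEGs, open points the other tested genes, short bars the list medians, and the dashed line the median of all genes. Ankrd1 and Wwc1, which passed the filter only through PASCs and EASCs, are drawn and enter the bars. The bars thus stand at 0.55 and 0.44 for the 10 genes and at 0.03 and -0.03 for the Hippo list. Most SRF and MRTF genes lay to the right (medians 2.50 and 2.02), the Hippo list spread around 0, and with total counts the median of all genes moved to -0.39 and -0.33.

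SRF and its actin-regulated cofactors MRTF share many targets with YAP and TAZ and respond to the same cytoskeletal tension, so their genes were counted for comparison. Of 12 listed and tested, 10 were upregulated DEGs in EASCs and 9 in PASCs against SASCs, and 3 were in EASCs against PASCs, where 13.6%, 12%, and 5.19% of all genes were. With total counts 8 were in EASCs and 7 in PASCs against SASCs, where 9.13% and 8.54% of all genes were. The list medians with TMM were 2.50, 2.02, and 0.52, against 0.40 and 0.41 for the YAP and TAZ genes without Ankrd1 and 0.32 for all 10. Cnn1 rose by 6.99 on the log2 scale in EASCs and 5.43 in PASCs against SASCs, Tagln by 5.59 and 4.67, Acta2 by 5.30 and 4.03, Myl9 by 4.48 and 3.24, and Actn1 by 3.16 and 2.63, all genes of the contractile cytoskeleton. Reads of Acta2 can be shared with other actin genes, so its value is less certain. Markers of smooth muscle and pericytes (Myh11, Des, Rgs5, Cspg4, Actg2, and Smtn) summed to 77.1 to 79.8 CPM in SASCs, and this sum was 240 to 261 CPM for PASCs and 656 to 692 CPM for EASCs. Of these markers, Rgs5 passed the filter only through SASCs and is left out of the count. Its counts ranged from 20 to 39 in SASCs, against at most 4 for PASCs and at most 7 for EASCs. All 5 other markers were upregulated DEGs in each comparison with SASCs, where 13.6% of all genes were in EASCs and 12% in PASCs.

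Mesothelial markers (Msln, Upk3b, Wt1, Krt8, Krt18, Krt19, and Lrrn4) summed to 18.4 to 20.0 CPM in SASCs, with 94.5 to 101 CPM for PASCs and 129 to 141 CPM for EASCs. Msln, Wt1, Krt8, and Lrrn4 were upregulated DEGs in EASCs and in PASCs against SASCs, against the same shares of all genes. Upk3b, at 0 to 2 counts in SASCs, and Krt18, at 0, passed the filter on low counts only through the other groups, and Krt19 was at 3 counts or fewer in PASCs and EASCs. Macrophage and leukocyte markers summed to 38.4 to 41.2 CPM in SASCs, with 57.7 to 58.9 CPM for PASCs and 85.6 to 86.5 CPM for EASCs, adipocyte markers to 55.3 to 60.7, 13.5 to 14.4, and 5.64 to 6.20, and endothelial markers to 41.6 to 44.2, 11.5 to 14.3, and 29.3 to 32.1. Epithelial markers (Epcam, Cdh1, and Cldn4) were scarce, and none passed the filter on low counts. They summed to at most 0.255 CPM in SASCs and 0.574 CPM in PASCs, with 0.689 to 1.17 CPM for EASCs, where Epcam had 9 to 27 counts. The smooth muscle, mesothelial, and macrophage sums had the same order of depots as Ctgf, Amotl2, Tead1, and Ankrd1, and the part of these cell types in the differences was not tested.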

How the data were processed

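The 9 samples were assigned to SASCs, PASCs, and EASCs by their titles. Per the study's methods, reads were paired-end (150 bp), trimmed by cutadapt, quality filtered by FastX-Toolkit, and aligned by TopHat. The authors deposited raw, whole-number counts per gene. The methods name rn6 and the submitters' processing notes rn5, and the table's Y chromosome contigs belong to rn6. The counting tool and its use of strand are not given in the sources used here, so overlapping genes cannot be told apart.

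Counts were tested with edgeR 4.0.16 in R 4.3.3 (TMM with factors of 0.740 to 1.23, filterByExpr, quasi-likelihood test, all 9 samples in one model of the groups). P-values were adjusted by Benjamini-Hochberg over 14770 genes within each comparison. The common biological coefficient of variation was 0.0685. CPM per kb is CPM divided by the deposited gene length. The fit was tested on simulated counts. Named were the 10 genes, the TEAD genes, at most 5 genes of each list with the largest change against SASCs, and the 2 genes nearest in pattern to each of the 10, except an item that is not reported here. Lats1, Nt5e, Stk3, Sav1, and single marker genes were named after their values were seen, and Ankrd1, Wwc1, and Rgs5 were left out of counts against SASCs after theirs were. The refits under alternative settings and the figures still include Ankrd1, and the figure of the gene lists includes Wwc1. Alternatives were DESeq2 1.42.0, total counts, upper quartile scaling, no filter, ribosomal RNA genes left out, 2 groups at a time, the replicate block, and each sample left out in turn. The genes and lists were chosen with earlier results of these data known.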

Additional observations from a re-analysis of the deposited data

How the results depend on the processing

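Of 480 refits of the 10 genes, 454 kept both the direction and the side of the threshold, 15 kept the direction but no longer passed, and 11 turned. With total counts without TMM, 7 turned: Yap1 (-0.26 in EASCs and -0.26 in PASCs against SASCs, and -0.0063 between EASCs and PASCs), Lats2 (-0.16), Cyr61 (-0.18), and Axl (-0.030) in EASCs against SASCs, and Wwtr1 (-0.067) in PASCs against SASCs. The other 4 were Thbs1 between EASCs and PASCs, whose values were 0.017 with upper quartile scaling and between -0.063 and 0.093 with 1 sample left out (0.093 without PASCs replicate 3, 0.023 without EASCs replicate 1, and 0.0058 without EASCs replicate 2). The cause was not tested. With total counts, DEGs of all genes split into 1349 higher and 3426 lower in EASCs and 1262 and 3169 in PASCs against SASCs, instead of 2002 and 2103 and 1779 and 2200.

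The numbers of YAP and TAZ genes that were DEGs, Ankrd1 included, were 4, 3, and 1 under every alternative, except 3 in EASCs against SASCs with total counts. Ankrd1 passed the filter on low counts only through PASCs and EASCs. Without it, the numbers in EASCs and PASCs against SASCs were 3 of 9 and 2 of 9 with TMM. With total counts they were 2 of 9 and 2 of 9. Leaving out the ribosomal RNA genes changed no call of the 10 genes. With the replicate block the numbers with Ankrd1 were 4, 3, and 1, and DEGs of all genes were 4061, 3944, and 1067 instead of 4105, 3979, and 1091. The block changed no call of the 10 genes. Samples with the same number correlated between -0.0348 and 0.0380 in their deviations from the group means, and 4 of 9 samples correlated best with their own number, so the number was not taken as a pairing. Replicates differed by more than counting noise (chi-square per degree of freedom 4.41 to 16.8). Depth limits Ankrd1 in SASCs, where 2 counts were found in 2 samples.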
